A study of Mus musculus with 16 samples.

Results

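The genes described here are 41 genes of insulin, insulin-like growth factor (IGF), FOXO and mTOR signalling, taken by their names from the 41740 genes counted in the ileum of STAM mice. The names cover the insulin and IGF1 receptors, the IRS adaptors, the PI3K and AKT kinases, the FOXO factors, the TSC and mTOR complexes and the genes that restrain them. All 41 were found, and all 41 passed the filter on low counts that left 15267 genes for testing. The rule names them by function and uses no measured value, but it was drawn up with earlier results of these data known.

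STAM mice are C57B/6J males that were given streptozotocin at 2 days of age and a high-fat diet from 4 weeks, which leaves them short of insulin. Every mouse here carried a floxed insulin receptor allele (InsR-flox), in controls without Cre (Villin-Cre(-)). Control-STAM-nonINS (n = 4) received saline, and Control-STAM-INS (n = 6) received the long-acting insulin degludec, up to 12 U/kg, from 6 weeks of age. ieIRKO-STAM-INS (n = 6) received the same insulin and carried Villin-Cre, whose promoter is active in the intestinal epithelium, so that any deletion is limited to that layer. Ileum was taken at 20 weeks of age. No group of ieIRKO mice without insulin was analysed here, and a group with Cre but no floxed allele was not analysed either. The RNA came from the whole wall of the ileum, so a lower level of a gene could come from fewer cells of a type or from less RNA per cell, which bulk libraries cannot tell apart.

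Insulin and IGF1 bind related receptor tyrosine kinases, which phosphorylate IRS adaptors and recruit PI3K. The lipid made by PI3K brings AKT to the membrane, and AKT keeps FOXO transcription factors out of the nucleus, inhibits GSK3 and, through TSC and RHEB, releases mTORC1. In the intestine the pathway is known for its part in nutrient handling and epithelial growth, and several of its genes, among them the receptor gene itself, are known FOXO targets in other tissues.

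Total counts per library ran from 13288018 to 22215382, and no 2 libraries of the same group agreed within sampling noise. The summed level of 11 markers of ileal enterocytes was 23800 to 40900 CPM (read counts scaled to the library size with TMM normalization) without insulin, 23800 to 39100 CPM in Control-STAM-INS and 12800 to 37200 CPM in the libraries labelled ieIRKO-STAM-INS. Markers of pancreatic acinar cells never exceeded 8 counts. Replicate 4 of Control-STAM-nonINS stood apart with summed endothelial markers of 354 CPM, against 127 to 187 CPM in the other 3 libraries of that group. Replicates 2 and 3 of ieIRKO-STAM-INS stood apart with 354 and 217 CPM over 4 B cell markers, against 17.3 to 51.6 CPM in the other 14 libraries. The 3 comparisons share groups: both comparisons with Control-STAM-nonINS use the same 4 libraries, and both comparisons with Control-STAM-INS use the same 6.

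Insr, the insulin receptor gene and the target of the deletion, lies on chromosome 8 (GRCm38, chr8:3122061-3279617, minus strand). The study checked the deletion by PCR with a primer pair that falls in exons 4 and 5 of the transcript with 21 exons, inside the coding sequence (chr8:3202958-3204704). That amplicon of 152 bases is shown because it marks the stretch of the receptor mRNA that the study followed, with both primer sites in capitals.
Insr amplicon: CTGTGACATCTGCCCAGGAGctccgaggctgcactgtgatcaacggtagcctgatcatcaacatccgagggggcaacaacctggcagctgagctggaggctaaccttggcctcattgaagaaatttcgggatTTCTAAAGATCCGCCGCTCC
The counts analysed here are of the whole gene, whose exons together span 13746 bases. Which exon is floxed is not given in the sources used here, so the count could include reads from exons that remain after recombination, and from cells outside the epithelium.

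Counted over the whole gene, Insr was at 112, 104, 88.3 and 116 CPM in replicates 1 to 4 of Control-STAM-nonINS. In Control-STAM-INS it was at 49.9 CPM in the lowest library, 63.7 CPM at the median and 76.1 CPM in the highest. In ieIRKO-STAM-INS it was at 57.5, 60.5 and 90.5 CPM in the same order. Every library without insulin lay above every Control-STAM-INS library, whereas the insulin-treated groups overlapped each other. With insulin in control mice Insr fell by 0.75 on the log2 scale (95% interval -1.02 to -0.47, adjusted p = 0.00275, edgeR quasi-likelihood test with Benjamini-Hochberg adjustment over all tested genes). The exact permutation test over the libraries gave p = 0.00476, the smallest that 4 against 6 libraries can give.

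Between the libraries labelled ieIRKO-STAM-INS and the control libraries under insulin the log2 difference of Insr was 0.10 (95% interval -0.15 to 0.35, adjusted p = 0.805), so the whole-gene count did not separate the genotypes and gives no check of the labels. Against Control-STAM-nonINS, where insulin and genotype differ together, Insr in ieIRKO-STAM-INS was lower by -0.65 (log2, adjusted p = 0.00582). Replicate 4, at 90.5 CPM, overlapped the untreated libraries.

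With insulin in control mice, 5 of the 41 genes were lower (Insr, Igf1r, Akt1, Ddit4 and Igfbp4) and 1 was higher (Igfbp5), together 14.6% of the genes described, beside 10.5% of all genes tested. In one direction, 12.2% were lower beside 6.76% of all genes, and 2.44% were higher beside 3.73%. The groups did not overlap for 7 of the 41 genes, 17.1% beside 10.6% of all genes. The shares called are near the background, so the count by itself is no result about the pathway, and the results below are those of single genes. The median log2 fold change of the 41 genes was -0.11, beside -0.0043 over all genes, with 28 values below 0 and 13 above. For 24 of the 41 the 95% interval lay within 0.5 of 0 on the log2 scale. Without replicate 1 of Control-STAM-nonINS, 3 of the 6 calls held (Insr, Igf1r and Igfbp4), and the share of all genes called fell to 5.34%.

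**Figure D1:**
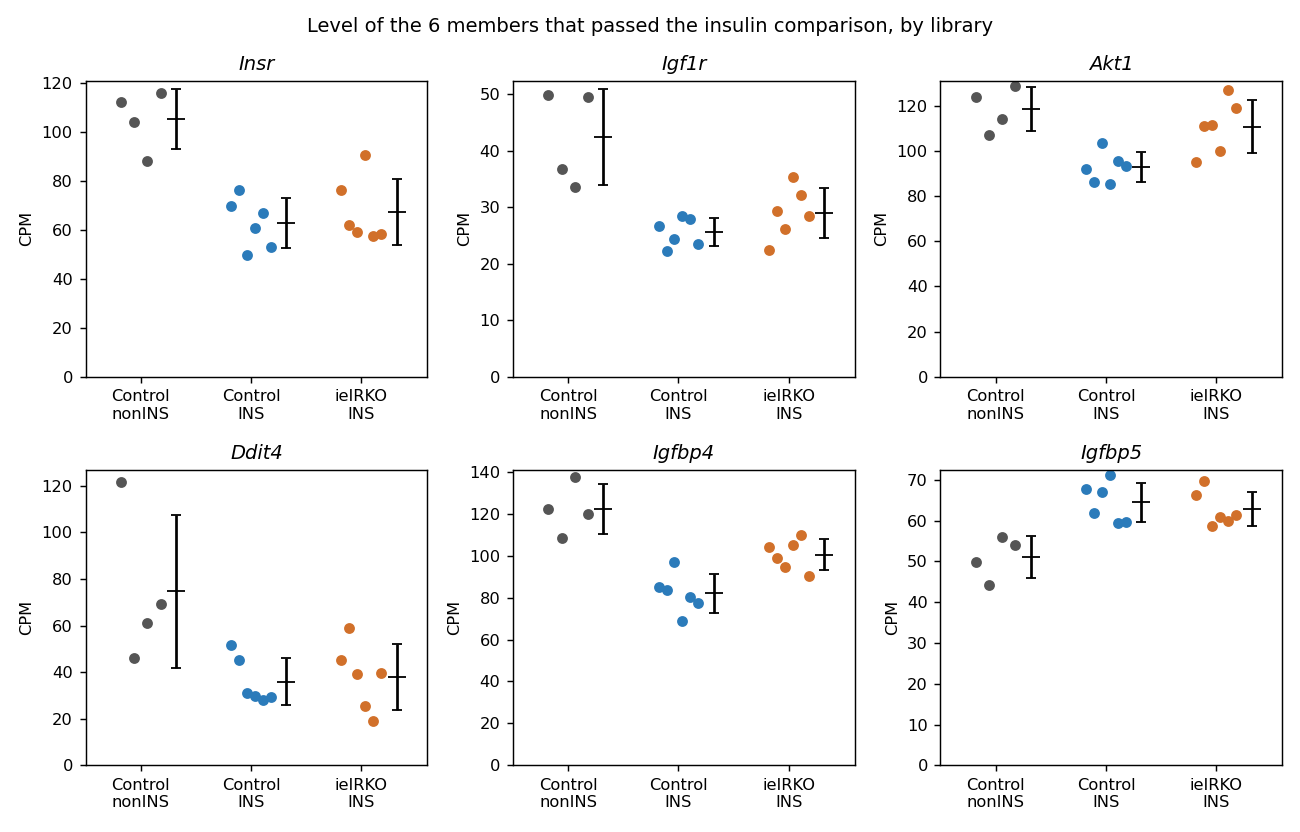
CPM (vertical axes, from 0) of the 6 genes past the threshold with insulin, 1 point per library, for Control-STAM-nonINS (grey, n = 4), Control-STAM-INS (blue, n = 6) and ieIRKO-STAM-INS (orange, n = 6); black marks are the mean and SD. Insr, Igf1r, Akt1 and Igfbp4 libraries without insulin sit above every Control-STAM-INS library, Igfbp5 libraries sit below them, and the Ddit4 groups overlap, with 1 untreated library at 122 CPM.

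The IGF1 receptor gene Igf1r encodes the receptor closest to the insulin receptor, and both can form hybrid receptors. It was at 49.9, 36.9, 33.6 and 49.5 CPM in Control-STAM-nonINS, where replicates 1 and 4 were the high ones. Control-STAM-INS ranged from 22.3 to 28.4 CPM with a median of 25.5, and ieIRKO-STAM-INS from 22.5 to 35.3 CPM with a median of 28.8. The Control-STAM-INS libraries all lay below the untreated ones, and 1 ieIRKO-STAM-INS library, replicate 4, reached into the untreated range. With insulin Igf1r fell by 0.73 (log2, SE 0.13, adjusted p = 0.0019), and it did not pass between the insulin-treated groups (0.18, 95% interval -0.05 to 0.41, adjusted p = 0.59). With insulin Insr was at 0.596-fold and Igf1r at 0.602-fold of the untreated level.

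All 7 endothelial markers had values below 0 with insulin in control mice, with a median log2 fold change of -0.56, and 2 of them passed the test as lower (Cdh5 and Vwf; 28.6%, beside 6.76% of all genes). Of the markers of other cell types, the macrophage marker Cd163 was lower (-0.70, adjusted p = 0.0481), with groups that did not overlap. Of the 8 macrophage markers, however, 5 had values above 0 (median 0.04). Summed macrophage markers were at 152 to 315 CPM without insulin, 189 to 222 CPM in Control-STAM-INS and 157 to 262 CPM in ieIRKO-STAM-INS. The enteric neuron marker Ret was higher (0.58, adjusted p = 0.0293), and 6 of the 8 neuron and glia markers had values above 0 (median 0.04). The summed level of the endothelial markers was 127 to 354 CPM without insulin, 121 to 172 CPM in Control-STAM-INS and 134 to 185 CPM in ieIRKO-STAM-INS. None of them was at 0 throughout a group. Without replicate 4, the library highest in them, Insr was at -0.70 (adjusted p = 0.0109), Igf1r at -0.65 (adjusted p = 0.00913) and Igfbp4 at -0.58 (adjusted p = 0.00282) on the log2 scale. Igfbp5 also held without it, at 0.36 (adjusted p = 0.0257), while the calls of Akt1 (-0.31, adjusted p = 0.0574) and Ddit4 (-1.09, adjusted p = 0.0742) were lost. That library also differed in macrophage, B and plasma cell and fibroblast markers, so leaving it out does not single out endothelial RNA. Beyond leaving out that library, whether RNA of any of these cell types took part in the differences was not tested. Summed markers of fibroblasts (494 to 659, 555 to 657 and 496 to 681 CPM in the 3 groups in the order above) and of smooth muscle (3590 to 4070, 3020 to 4620 and 3290 to 4420 CPM) covered like ranges in every group.

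Since FOXO factors are the transcriptional end of the pathway, the 250 bases before the RefSeq start (GRCm38.p6) are shown for the genes that fell and held a motif there, with the GC box GGGCGG and the FOXO motif GTAAACA in capitals, on either strand. RefSeq windows were matched for 37 of the 41 genes, and none was matched for Insr, Socs2, Eif4ebp1 and Foxo4 in the set of windows used.
Igf1r (chr7:67952007-67952256, plus strand): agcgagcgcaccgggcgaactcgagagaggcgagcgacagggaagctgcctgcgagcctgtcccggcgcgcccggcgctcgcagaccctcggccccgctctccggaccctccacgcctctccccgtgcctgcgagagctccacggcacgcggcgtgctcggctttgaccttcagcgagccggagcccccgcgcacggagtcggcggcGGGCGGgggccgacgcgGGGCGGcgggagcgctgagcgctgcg
Ddit4 (chr10:59951771-59952020, minus strand): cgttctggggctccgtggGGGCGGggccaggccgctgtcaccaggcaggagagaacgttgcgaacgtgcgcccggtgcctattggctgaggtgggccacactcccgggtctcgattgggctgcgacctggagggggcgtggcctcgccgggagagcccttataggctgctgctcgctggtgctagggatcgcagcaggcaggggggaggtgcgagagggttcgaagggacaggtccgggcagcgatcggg
Akt1 (chr12:112674885-112675134, minus strand): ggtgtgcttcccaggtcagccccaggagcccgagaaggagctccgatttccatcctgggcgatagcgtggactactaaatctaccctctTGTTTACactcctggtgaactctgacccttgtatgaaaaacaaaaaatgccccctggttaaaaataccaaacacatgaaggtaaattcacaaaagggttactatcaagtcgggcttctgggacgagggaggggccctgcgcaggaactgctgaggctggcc
The FOXO motif, searched on both strands of windows that also hold the first 50 bases after the start, was in at least 1 window of 2 of 37 genes (Akt1 and Sesn1) and of 4.05% of all 27025 genes with a window. In Akt1 it lay 161 bases before the start, on the opposite strand, and the GC boxes of Akt1 lay in the window of another RefSeq start. The GC box was in 28 of 37 genes, Igf1r, Ddit4 and Akt1 among them, and in 38.2% of all genes, counted the same way. The ATF4 composite motif TGATGNAA was in Akt2 and Trib3 and in 4.51% of all genes. The cyclic AMP response element TGACGTCA (2.03% of all genes) and the palindromic glucocorticoid receptor element (0.0777%) were in none of the 37.

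The IRS adaptors Irs1 and Irs2 link the receptors to PI3K, and neither passed the test. Irs1 was at 3.55 ± 1.07, 2.29 ± 0.857 and 2.07 ± 0.38 CPM (mean ± SD) in the untreated, insulin-treated control and ieIRKO-STAM-INS groups, and rested on as few as 18 counts in a library. Its log2 difference with insulin was -0.64 (95% interval -1.19 to -0.08, adjusted p = 0.167). Irs2 was at 47.6 ± 4.48, 40.3 ± 14.3 and 49.4 ± 19.4 CPM, with a difference of -0.24 (adjusted p = 0.656) and more spread in both insulin-treated groups than without insulin.

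Of the 7 genes of PI3K, PDK1 and AKT, only Akt1 passed. Akt1, the most widely expressed of the AKT kinases, was at 124, 107, 114 and 129 CPM in Control-STAM-nonINS. It ranged from 85.3 to 103 CPM (median 92.8) in Control-STAM-INS and from 95.2 to 127 CPM (median 111) in ieIRKO-STAM-INS. The Control-STAM-INS libraries lay below all untreated ones, while the ieIRKO-STAM-INS libraries overlapped both other groups. With insulin Akt1 fell by 0.35 (log2, SE 0.09, adjusted p = 0.018), and the call was lost without replicate 1 (adjusted p = 0.0627) or replicate 4 (adjusted p = 0.0574) of Control-STAM-nonINS, with a range of 0.00398 to 0.0627 over 18 alternatives. Between the genotypes under insulin its difference was 0.25 (95% interval 0.10 to 0.41) with an adjusted p of 0.297 by edgeR.

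Akt2, the AKT kinase best known for glucose handling, was at 55.7 ± 2.79, 55.9 ± 3.93 and 61.9 ± 5.43 CPM in the 3 groups in the order above, and its insulin difference was 0.0059 (95% interval -0.15 to 0.16). The regulatory subunit genes Pik3r1 and Pik3r2, the catalytic subunit genes Pik3ca and Pik3cb and Pdpk1, which encodes the kinase that activates AKT, had insulin differences between -0.11 (Pik3cb) and 0.13 (Pdpk1), all with intervals within 0.5 of 0. Of the lipid phosphatase genes, whose products act on PI3K's lipid or its relatives, Inpp5k was at -0.26 (adjusted p = 0.166) and Inppl1, which encodes SHIP2, at -0.17 (adjusted p = 0.269).

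Among the 5 FOXO and GSK3 genes none passed with insulin. Foxo4 came nearest, with 41.9 to 48.1 CPM without insulin and 30.2 to 38.8 CPM in Control-STAM-INS, groups that did not overlap, and a log2 difference of -0.35 (adjusted p = 0.0676). Foxo1 was at 45.2 ± 7.64 and 40.6 ± 5.36 CPM and Foxo3 at 104 ± 23.9 and 120 ± 9.83 CPM in those groups, with differences of -0.15 and 0.20. Gsk3a and Gsk3b, the kinases of glycogen synthase, were at 0.06 and -0.0047, both with intervals within 0.5 of 0.

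None of the 6 TSC and mTOR genes passed with insulin either. Tsc1 and Tsc2 encode the brake on RHEB, and their differences were -0.12 and 0.12. Rheb, the small GTPase that switches on mTORC1, was at 73.5 ± 7.42 CPM without and 62.7 ± 4.68 CPM with insulin, a difference of -0.23 (adjusted p = 0.104). The kinase gene Mtor was at -0.10, its mTORC1 partner Rptor at 0.15 and its mTORC2 partner Rictor at -0.25 (adjusted p = 0.194). The mTORC1 substrates Rps6kb1, Eif4ebp1 and Eif4ebp2 were at -0.02, -0.29 and -0.07. Eif4ebp1 had the widest interval of the substrates, -0.68 to 0.10.

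Ddit4 encodes REDD1, an inhibitor of mTORC1 that rises with stress and with glucocorticoids. It was at 122, 46.2, 61.4 and 69.4 CPM in Control-STAM-nonINS, where replicate 1 was far above the rest. Control-STAM-INS ranged from 28.0 to 51.7 CPM with a median of 30.5, and ieIRKO-STAM-INS from 18.9 to 58.8 CPM with a median of 39.5. The highest Control-STAM-INS library exceeded the lowest untreated library, so the groups overlapped. With insulin Ddit4 fell by 1.06 (log2, SE 0.31, adjusted p = 0.0407), the largest change among the 41 genes, but without replicate 1 it was at -0.72 (adjusted p = 0.175), and the adjusted p ranged from 0.00494 to 0.175 over 18 alternatives, past the threshold in 9.

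The other nutrient and stress inhibitors did not pass. Sesn3, a sestrin gene, was at 16.7 to 20.7 CPM without insulin and 21.2 to 26.7 CPM in Control-STAM-INS, groups that did not overlap, with a difference of 0.38 (adjusted p = 0.328). In ieIRKO-STAM-INS it spread from 16.7 to 48.3 CPM, the 48.3 CPM in replicate 2, one of the libraries high in B cell markers. Sesn1 was at 0.08, and Trib3, a pseudokinase that binds AKT, at -0.21, with an interval of -0.96 to 0.54.

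Feedback at the receptor is exerted by adaptors (Grb10, Grb14), the ubiquitin ligase Cbl, the phosphatase Ptpn1 and the SOCS proteins. None of the 6 genes passed with insulin. Grb10 was at 0.12, Grb14 at -0.02, Cbl at 0.07 and Ptpn1 at -0.11. Socs2, best known as a brake on growth hormone signalling, was at 68.5 ± 17.2 CPM without and 49.6 ± 7.85 CPM with insulin, a difference of -0.47 (adjusted p = 0.0709). Socs3, induced by cytokines, was at 0.02 with an interval of -1.15 to 1.19, the widest of all 41 genes.

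Of the 4 genes of the IGF ligand and its binding proteins, 2 passed with insulin, in opposite directions, beside 10.5% of all genes in either. Igfbp4, which binds IGFs and mostly withholds them from their receptor, was at 122, 108, 138 and 120 CPM in Control-STAM-nonINS. It ranged from 68.8 to 96.9 CPM (median 82) in Control-STAM-INS and from 90.1 to 110.0 CPM (median 102) in ieIRKO-STAM-INS. Control-STAM-INS lay wholly below the untreated group, and the ieIRKO-STAM-INS values lay mostly between both. With insulin Igfbp4 fell by 0.57 (log2, SE 0.09, adjusted p = 0.00101), the lowest adjusted p of the 41 genes.

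Igfbp5, another IGF binding protein, went the other way. It was at 49.9, 44.2, 56.0 and 53.9 CPM in Control-STAM-nonINS, 59.5 to 71.1 CPM (median 64.4) in Control-STAM-INS and 58.8 to 69.7 CPM (median 61.1) in ieIRKO-STAM-INS. Both insulin-treated groups lay wholly above the untreated libraries. With insulin it was 1.26-fold higher (log2 0.34, SE 0.08, adjusted p = 0.0167), and without replicate 1 of Control-STAM-nonINS the adjusted p was 0.0549 (range 0.00247 to 0.0549 over 18 alternatives). Igf1, the ligand, was at 7.81 ± 1.49 CPM without and 5.07 ± 1.24 CPM with insulin, a difference of -0.63 that did not pass (adjusted p = 0.0959). Igfbp3 was at 63.5 ± 31.2 and 53.7 ± 14.9 CPM, its highest value of 107 CPM being in replicate 4 of Control-STAM-nonINS, the library highest in endothelial markers.

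**Figure D2:**
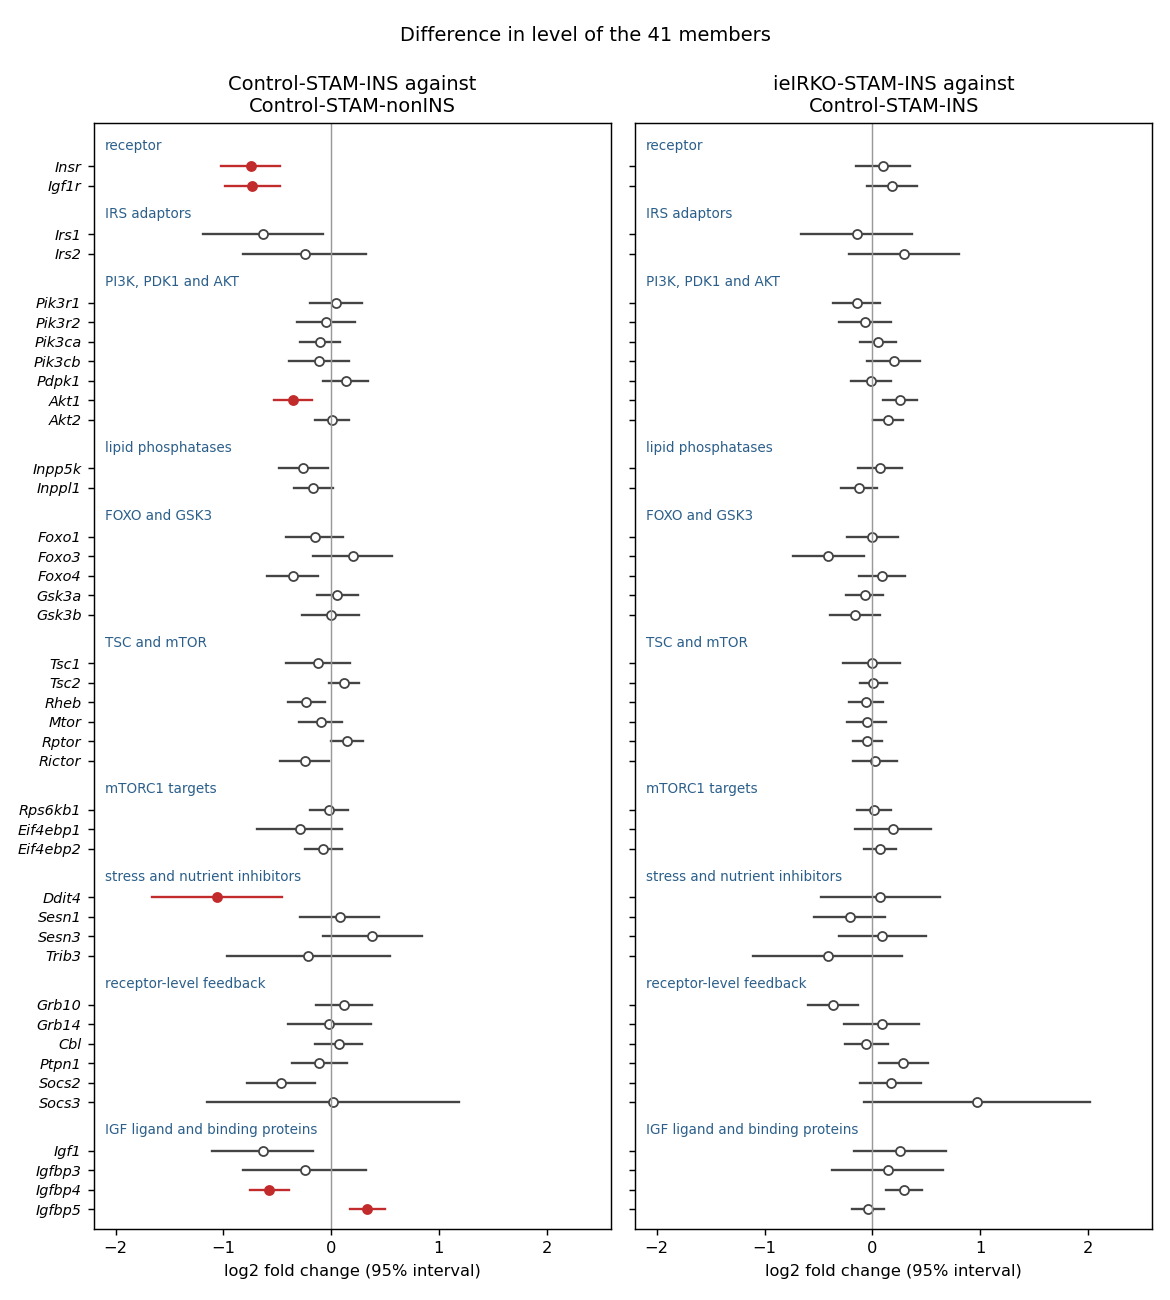
Log2 fold change (horizontal axes) with its 95% interval for the 41 genes in rows grouped by role, for insulin in control mice (left) and for the ieIRKO-STAM-INS against the control group under insulin (right); filled red points passed an adjusted p of 0.05. On the left 6 genes passed, 5 of them below 0, and on the right none passed, with Socs3 having the widest interval.

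The comparison of ieIRKO-STAM-INS with insulin-treated controls is meant to ask what loss of the epithelial receptor does under insulin, though the counts of Insr give no check of that loss. No gene of the 41 passed in it by edgeR, DESeq2 or edgeR's likelihood ratio test, beside 0.223% of all genes in the first of these. At an unadjusted p of 0.05 by edgeR, 5 genes passed (Akt1, Igfbp4, Grb10, Foxo3 and Ptpn1), 12.2% of the 41 beside 11.3% of all genes. No gene of the 41 had groups without overlap, beside 0.845% of all genes. The median log2 difference was 0.03, beside 0.02 over all genes, with 23 values above 0 and 18 below. For 29 of the 41 the interval lay within 0.5 of 0, and for the others it reached beyond 0.5.

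The receptors, Igf1r and Insr, and the adaptors Irs1 and Irs2 were within 0.30 of 0 in this comparison, but the intervals of the adaptors reached -0.66 and 0.81. Igfbp4 was at 82.1 ± 9.31 CPM in Control-STAM-INS and 100.5 ± 7.38 CPM in ieIRKO-STAM-INS, a difference of 0.29 (95% interval 0.13 to 0.46, adjusted p = 0.284, exact permutation p = 0.00649). Foxo3 was at 107 to 132 CPM in Control-STAM-INS and 50.8 to 116 CPM in ieIRKO-STAM-INS, a difference of -0.41 (adjusted p = 0.377), and its lowest value was in replicate 5. Grb10, an adaptor that inhibits both receptors, was at 11 ± 1.44 and 8.53 ± 1.16 CPM, a difference of -0.36 (adjusted p = 0.301). Ptpn1, which encodes the phosphatase PTP1B, was at 33.5 ± 2.26 and 41 ± 8.21 CPM, a difference of 0.29 (adjusted p = 0.368), and its highest value of 53.0 CPM was in replicate 2, one of the libraries high in B cell markers.

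Socs3 had the largest difference, 0.97 (95% interval -0.08 to 2.02, adjusted p = 0.528). In ieIRKO-STAM-INS it was at 56.8, 48.4, 50.3, 40.0, 141 and 311 CPM in replicates 1 to 6, so that replicates 5 and 6 carried the difference, and without replicate 6 it was 0.29. In Control-STAM-INS it ranged from 31.2 to 117 CPM with a median of 43.2, with replicate 6 far above the rest. Replicate 5 of ieIRKO-STAM-INS also had the lowest summed enterocyte markers of all libraries, 12800 CPM. Whether the makeup of that library took part in its Socs3 level was not tested.

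ieIRKO-STAM-INS against Control-STAM-nonINS combines genotype and insulin, which cannot be told apart in it. In this comparison 6 of the 41 genes passed (14.6%, beside 13.3% of all genes): Insr, Igf1r, Inppl1, Rheb and Ddit4 were lower (12.2%, beside 7.59% of all genes) and Igfbp5 was higher (2.44%, beside 5.74%). Igfbp5 alone had groups that did not overlap, 2.44% of the genes beside 8.56% of all genes. Igf1r was at -0.55 (adjusted p = 0.00964), Ddit4 at -0.98 (adjusted p = 0.0476), Rheb at -0.29 (adjusted p = 0.0375), Inppl1 at -0.29 (adjusted p = 0.044) and Igfbp5 at 0.30 (adjusted p = 0.0259). Akt1 was at -0.10 (adjusted p = 0.496) and Igfbp4 at -0.28 (adjusted p = 0.0548). The count was 2 without replicate 1 of Control-STAM-nonINS, and 3 without its replicate 3 or without replicate 3 of ieIRKO-STAM-INS, while the share of all genes called was 7.09%, 8.89% and 9.69% in these fits. In each of these fits Insr and Igf1r still passed.

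Some markers of other cell types also passed in this comparison. All 7 markers of B and plasma cells had values above 0 (median log2 difference 1.86), and 3 passed as higher (42.9%, beside 5.74% of all genes), Cd79a at 1.86 (adjusted p = 0.0487), Jchain at 0.87 (adjusted p = 0.0302) and Mzb1 at 1.29 (adjusted p = 0.00154). The summed level of the 7 markers was 916 to 1970 CPM without insulin, 1180 to 1760 CPM in Control-STAM-INS and 1860 to 3440 CPM in ieIRKO-STAM-INS. Every ieIRKO-STAM-INS library thus lay above every Control-STAM-INS library. The endothelial markers Flt1 (-0.77, adjusted p = 0.0364) and Vwf (-0.78, adjusted p = 0.0193), the fibroblast marker Dcn, the enterocyte marker Fabp6 and the macrophage marker Cd163 passed as lower. All 7 endothelial markers had values below 0 (median -0.335), as did 6 of 9 fibroblast markers (median -0.08) and 8 of 11 enterocyte markers (median -0.09). Of the 8 macrophage markers, 6 had values above 0 (median 0.12). Between the genotypes under insulin the 7 B and plasma cell markers also had values above 0 (median 2.01), with none past the threshold by edgeR and 6 at an unadjusted p under 0.05. All 11 enterocyte markers had values below 0 there (median -0.27), as did 8 of 9 fibroblast markers (median -0.08), again with none past the threshold. Without both libraries rich in B cell markers, 3 of the 41 genes passed against untreated controls (Insr, Igf1r and Ddit4), beside 8.32% of all genes. Inppl1 (adjusted p = 0.146), Rheb (adjusted p = 0.102) and Igfbp5 (adjusted p = 0.0668) did not pass. Over all 19 alternatives the log2 difference ran from -0.338 to -0.233 for Inppl1, -0.337 to -0.222 for Rheb and 0.245 to 0.351 for Igfbp5. Between the genotypes the count stayed at 0 without those libraries. The part of the other markers was not tested.

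**Figure D3:**
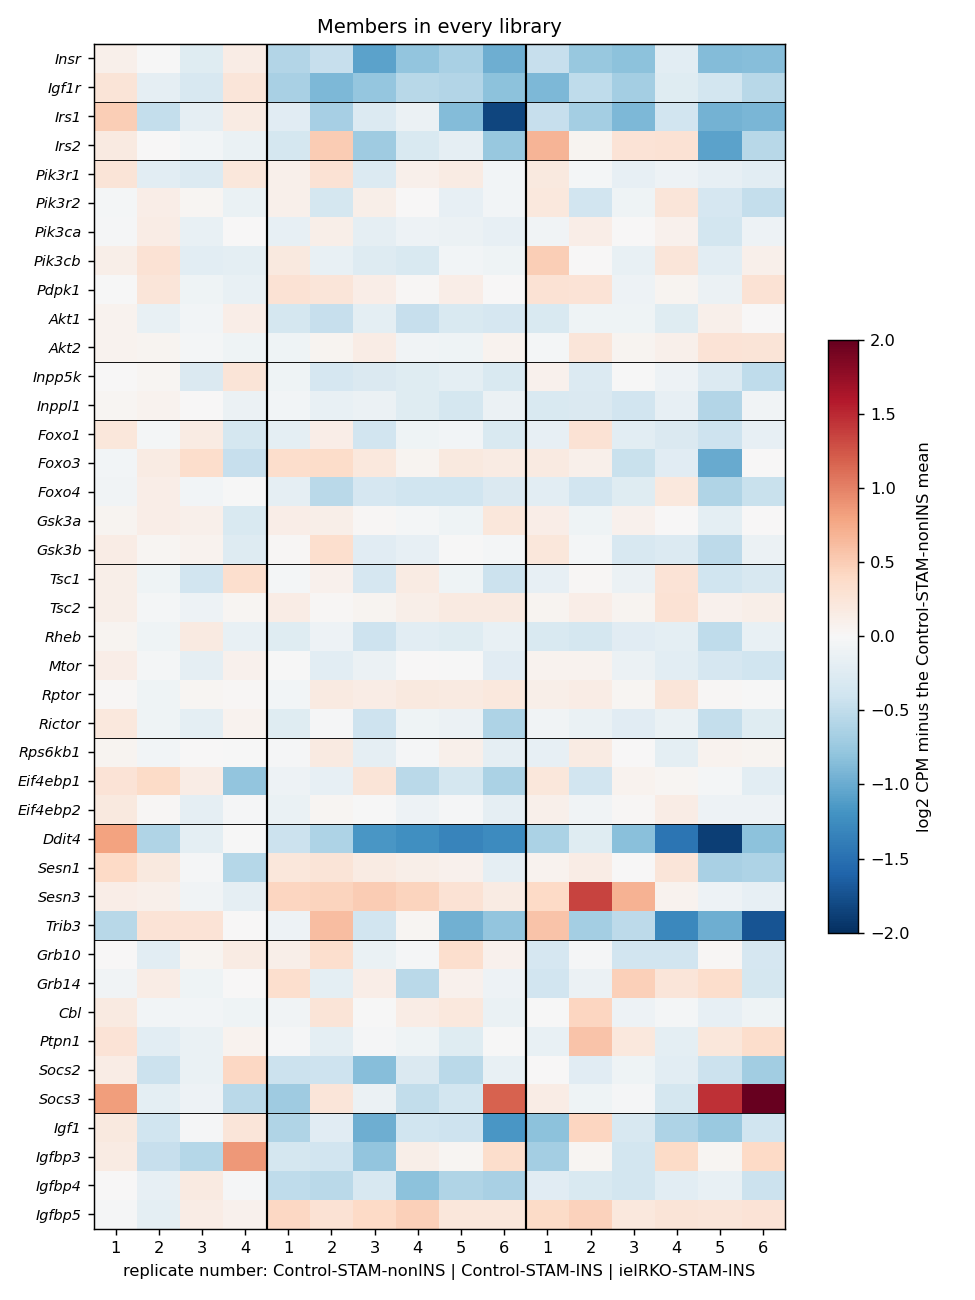
Log2 CPM minus the Control-STAM-nonINS mean (colour, blue below and red above, limited to 2 either way) for the 41 genes in rows and all 16 libraries in columns. Insr and Igf1r are below the untreated mean in all 12 insulin-treated libraries, Igfbp5 is above it in all 12, and Socs3 is highest in replicate 6 of ieIRKO-STAM-INS.

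Levels of different genes were compared as CPM per kilobase of exon in Control-STAM-nonINS. Ddit4 (42.6 ± 18.7), Eif4ebp2 (37.1 ± 3.88), Gsk3a (34.8 ± 4.63), Sesn1 (29.1 ± 7.69), Akt1 (28.9 ± 2.39) and Igfbp4 (27.6 ± 2.7) were highest, all in CPM per kilobase, and neighbours in this order differed by less than their spread. The lowest were Irs1 (0.388 ± 0.117), Grb14 (0.738 ± 0.058) and Igf1 (0.788 ± 0.151 CPM per kilobase), of which Grb14 and Igf1 did not differ beyond their spread. Some paralogs differed widely on this scale. Irs2 was at 7.54 ± 0.708 CPM per kilobase against 0.388 for Irs1, Insr at 7.65 ± 0.891 against 2.53 ± 0.504 for Igf1r, and Akt1 at 28.9 against 7.81 ± 0.391 for Akt2. Foxo3 (13.8 ± 3.16) and Foxo4 (12.6 ± 0.816 CPM per kilobase) differed by less than their spread. Exon lengths came from all annotated transcripts, so a gene with long rare exons has a lower level on this scale.

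**Figure D4:**
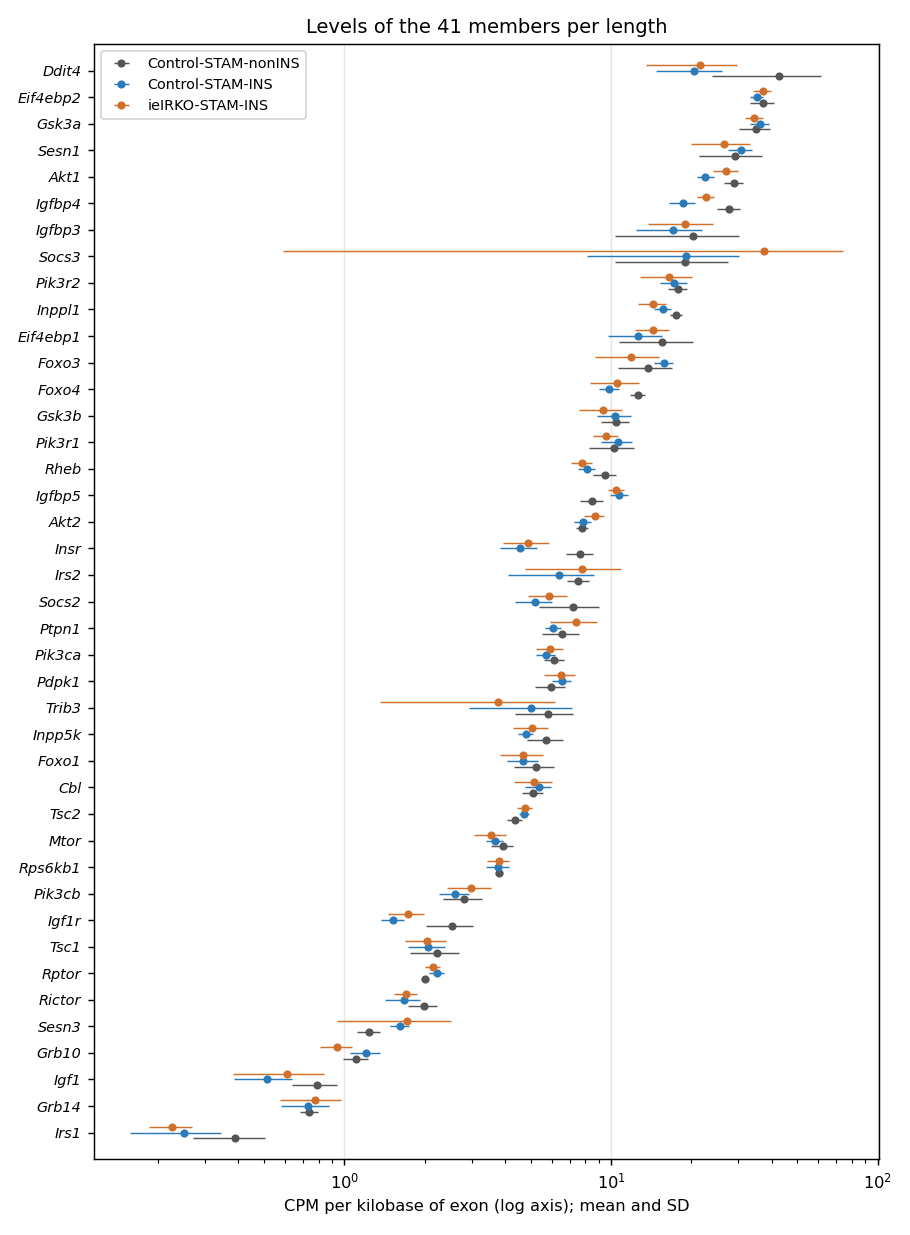
Level of each of the 41 genes in CPM per kilobase of exon (log axis), mean and SD by group, ordered by the Control-STAM-nonINS mean. Genes run from 0.388 for Irs1 to 42.6 for Ddit4 without insulin, and for Insr and Igf1r the mean without insulin lies above the means of both insulin-treated groups.

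Replicates of most genes were close. The median coefficient of variation over the 41 genes was 12% without insulin, 11.2% in Control-STAM-INS and 16.3% in the ieIRKO-labelled group. It was below 10% for 14, 18 and 10 genes in these groups. The most variable gene was Igfbp3 without insulin (49.1%), and Socs3 in Control-STAM-INS (57.6%) and ieIRKO-STAM-INS (98.4%). Tsc2 was the steadiest in both insulin-treated groups, at 4.4% and 6.31%.

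Beyond the 41, a list of 75 other genes of the same pathways was read, of which 72 could be tested. With insulin in control mice 7 of the 72 were lower and none higher (9.72%, beside 6.76% of all genes lower), and the list had a median log2 value of -0.07. Deptor, a subunit that inhibits mTOR, was at 108 ± 15.2 CPM without and 67.7 ± 7.59 CPM with insulin (log2 -0.68, adjusted p = 0.00351). Prkci, an atypical protein kinase C, was at -0.40 (adjusted p = 0.0054), and Rragd, a Rag GTPase that brings mTORC1 to lysosomes, at -0.89 (adjusted p = 0.0207).

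Relatives of the IGF and sestrin genes were read in the same list. The IGF2 gene Igf2 was lower by -0.62 (adjusted p = 0.0318) and the sestrin gene Sesn2 by -0.73 (adjusted p = 0.035). Igf2r, which clears IGF2, was at -0.21 (adjusted p = 0.302). Between the genotypes under insulin none of the 72 passed by edgeR. Against Control-STAM-nonINS, 11 of the 72 passed in ieIRKO-STAM-INS (15.3%, beside 13.3% of all genes), 8 lower and 3 higher, and 4 passed with only these groups in the fit (6.92% of all genes).

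A list of 27 genes known as FOXO targets, 25 of them tested, was read beside the FOXO genes; 6 of the tested genes are also among the 41. With insulin in control mice 5 were lower and 1 was higher, 24% beside 10.5% of all genes, and the median was -0.30. Insr was among those that fell. Pdk4, which encodes a kinase that shuts glucose carbon out of the mitochondrion, was at 106 ± 19.3 CPM without and 12.8 ± 9.05 CPM with insulin (log2 -3.07, adjusted p = 0.0065). Klf2, an endothelial and lymphocyte transcription factor gene, was at -1.10 (adjusted p = 0.0209), and Cited2, a transcriptional coregulator gene, was higher at 0.66 (adjusted p = 0.00555). Between the genotypes under insulin none of the 25 passed, with Pdk4 at 0.80 (adjusted p = 0.626). Against untreated controls 6 of the 25 passed in ieIRKO-STAM-INS, 24% beside 13.3% of all genes. With only the groups compared in the fit, 3 of the 25 passed there (6.92% of all genes) and 10 with insulin (11.8% of all genes).

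**Figure D5:**
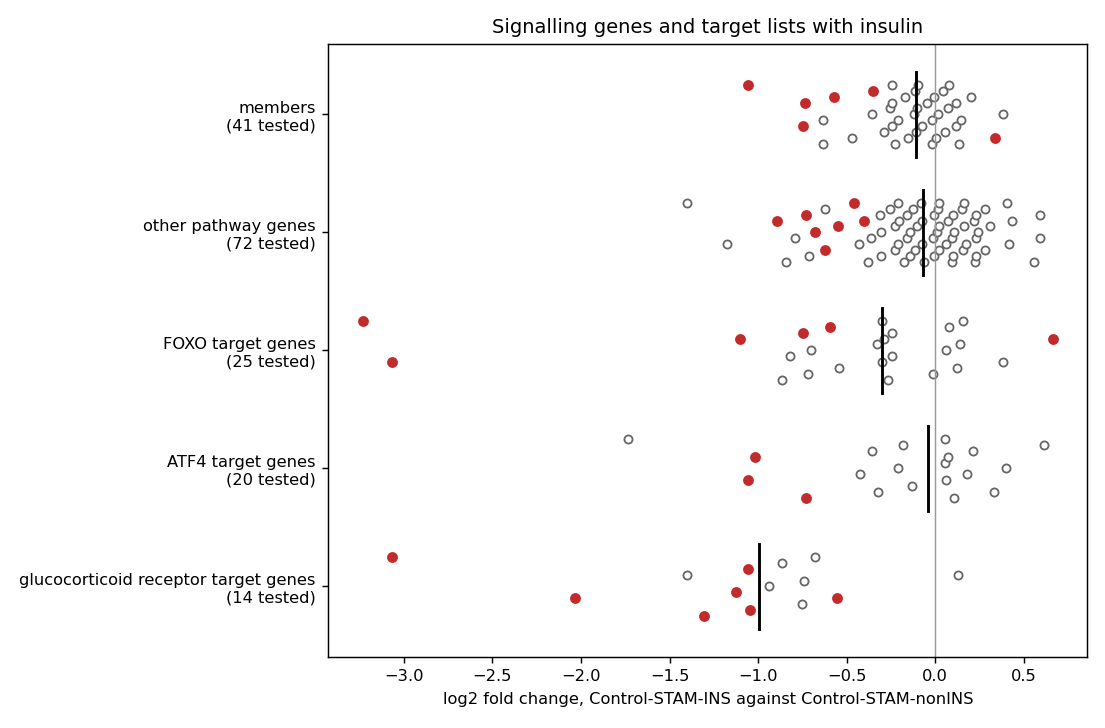
Log2 fold change with insulin in control mice (horizontal axis) for the 41 genes and for 4 lists of related genes, 1 point per tested gene, filled red where the adjusted p was below 0.05; black bars are medians. The medians are -0.11, -0.07, -0.30, -0.04 and -0.99 from top to bottom; Insr and Ddit4 stand in more than 1 list.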

How the data were processed

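Total RNA of the ileal wall was sequenced (directional NEBNext libraries, NovaSeq). Per the labels and methods, the authors mapped reads to GRCm38 and counted them per gene with CLC Genomics Workbench; the deposited values are raw counts. The strand setting and the treatment of reads with several matches are not given in the sources used here. Of the 41 genes, 21 overlap another gene in GENCODE vM21, Insr with a pseudogene and an antisense gene on the other strand.

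Counts were tested in R 4.3.3 with edgeR 4.0.16 (TMM, filterByExpr with a minimum count of 10, robust quasi-likelihood fit of all 16 libraries), with Benjamini-Hochberg adjustment over 15267 genes and a threshold of 0.05. CPM are scaled by TMM. Exact permutation tests were two-sided, over all 210 or 924 arrangements of libraries, and used log2 CPM with a prior count of 2. Alternatives were DESeq2 1.42.0, edgeR's likelihood ratio test, other scalings and filters, only the groups compared, a replicate block and each library left out. The fit was tested on simulated data. The labels do not tie libraries to litters or cages, so p-values measure the spread between these libraries.

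The 41 genes and the gene lists were chosen with earlier results of these data known. Values by library are given for Insr and for genes past 0.05 with insulin or between genotypes; other genes by group values; from each list at most the 4 genes with the lowest adjusted p, plus relatives of the 41, some of which are not reported here. Socs3 by library, the ranges of Foxo3, Foxo4, Sesn3, Ptpn1 and Igfbp3, and the markers of other cell types named were chosen after their values were seen.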

Additional observations from a re-analysis of the deposited data

Results flagged for a closer look

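Within groups, 12 of 123 checks of a gene in a group found 1 library whose gap to its nearest neighbour took an unusually large share of the group's range; chance alone would give about 6.15, 1 in 20. Replicate 2 of ieIRKO-STAM-INS, one of the libraries high in B cell markers, was the high library for Foxo1 (54.8 CPM, next 40.1, share 0.697), Cbl (84.5 CPM, next 62.6, share 0.768) and Igf1 (10.4 CPM, next 6.16, share 0.693). Replicate 2 of Control-STAM-INS was the high library for Irs2 (67.2 CPM, next 42.1, share 0.642) and Pik3ca (59.9 CPM, next 51.6, share 0.766).

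Socs3 stood out in replicate 6 of Control-STAM-INS (117 CPM, next 60.5, share 0.657) and in replicate 6 of ieIRKO-STAM-INS (311 CPM, next 141, share 0.627). The labels give these libraries no link beyond the number, and whether they share a litter or cage is not known. Trib3 was high in replicate 1 of ieIRKO-STAM-INS (17.8 CPM, next 8.31, share 0.665), and Tsc2 in replicate 4 of that group (51.2 CPM, next 46.0, share 0.658). Rptor was low in replicate 2 of Control-STAM-nonINS (25.6 CPM, next 27.3, share 0.856) and in replicate 1 of Control-STAM-INS (26.0 CPM, next 30, share 0.766). Cbl was high in replicate 1 of Control-STAM-nonINS (71.6 CPM, next 60.7, share 0.91). The values of Rptor and Tsc2 span a few CPM in all, so these gaps are small in size.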

How the results depend on the processing

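With insulin in control mice, Insr, Igf1r and Igfbp4 passed in all 18 alternatives, Igfbp5 in 17, Akt1 in 16 and Ddit4 in 9; the number of the 41 genes called was 3 to 7 with 1 library left out. Between the genotypes under insulin the number was 0 in all 21 alternatives; the log2 difference of Insr was -0.00256 without replicate 4 of ieIRKO-STAM-INS and ran up to 0.163 with another library left out. Of the genes not called, 3 of 35 with insulin (Foxo4, Sesn3 and Socs2), 0 of 41 between genotypes and 3 of 35 in the third comparison passed in an alternative, and 12, 13 and 11 changed sign in one. Against Control-STAM-nonINS, Insr and Igf1r passed in all 19 alternatives; the number called was 2 to 6 with 1 library left out, 3 without a filter, 3 without both libraries rich in B cell markers and 2 with only the groups compared. That last setting also gave 4 other pathway genes, 3 FOXO targets, 3 ATF4 targets and 5 glucocorticoid receptor targets there (6.92% of all genes), and 10 FOXO targets with insulin (11.8%). DESeq2 called 12 other pathway genes with insulin and 1 glucocorticoid receptor target (Fkbp5) between genotypes; over all genes it called 127 between genotypes, against 34 by edgeR. The causes were not tested.

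Same-numbered libraries of different groups were not treated as pairs. Of 14 such pairs, 4 deviated together with r over 0.1 (range -0.0943 to 0.179), beside a median r of 0.00278 over the other pairs. The labels give no pairing, and these values cannot exclude one. With the replicate number as a block, 5 genes were called with insulin (Ddit4 at -0.90, adjusted p = 0.0508, was not), 0 between genotypes and 4 in the third comparison.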

Other observations

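Ddit4 belongs also to a list of 14 genes induced by the glucocorticoid receptor. Of the 14, 7 were lower with insulin in control mice and none higher (50%, beside 6.76% of all genes lower), 13 had values below 0, and the median log2 fold change was -0.99. Dusp1, a phosphatase of MAP kinases, was at 34.3 ± 16.8 CPM without and 13.8 ± 3.73 CPM with insulin (log2 -1.31, adjusted p = 0.00555). Sult1a1, a sulfotransferase, was at -1.13 (adjusted p = 0.0169) and Klf9, a transcription factor gene, at -0.55 (adjusted p = 0.0208), while Pdk4 is also in the FOXO list. None of the 14 passed between the genotypes under insulin by edgeR, and 10 of 14 were lower when ieIRKO-STAM-INS was set against untreated controls (71.4%, beside 7.59% of all genes lower), or 5 of 14 with only these groups in the fit (4.48% of all genes lower). Fkbp5, which holds the receptor in the cytosol, was at 304 ± 104, 147 ± 37.8 and 76.7 ± 32.3 CPM in the 3 groups, with its lowest values in ieIRKO-STAM-INS (log2 -1.99 against Control-STAM-nonINS, adjusted p = 0.000854). The list was chosen with results of these data known.

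Of 20 tested targets of ATF4, the factor of the integrated stress response, 3 were lower with insulin (Cebpb, Sesn2 and Ddit4; 15%, beside 6.76% of all genes lower) and none higher, with a median of -0.04. Cebpb was at 61.9 ± 17.1 CPM without and 30.6 ± 5.53 CPM with insulin (log2 -1.02, adjusted p = 0.00307). Nupr1, a small stress-induced chromatin protein gene, was the 1 gene of these lists that passed between genotypes by edgeR (DESeq2 also called Fkbp5): it was at 31.3 to 39.2 CPM in Control-STAM-INS and 17.1 to 25.3 CPM in ieIRKO-STAM-INS, groups that did not overlap (log2 -0.79, adjusted p = 0.00926).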
